A study of Mus musculus with 37 samples.

Results

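The ileal lymph node, which lies in the mesentery and drains the last stretch of the small intestine, was compared with the mediastinal lymph node, which the labels tie to the lung. RNA came from immunoprecipitated ribosomes of RiboTag mice carrying a CD169-Cre knock-in on both alleles and Rpl22HA on both alleles, in which Cre recombinase switches on a haemagglutinin-tagged copy of the ribosomal protein Rpl22. The 3 ileal and the 3 mediastinal libraries were taken by their site labels, 6 of the 37 libraries of the series, and both sites share the genotype, with no treatment beyond the cross named in the labels. The labels name the profiled cells as CD169 macrophages and also state that the tagged allele is active throughout the body, and they give neither age nor sex. Of 56351 genes in the deposited table, 20459 had enough counts in these 6 libraries to be tested. Nothing in the labels says whether the 3 libraries of a site came from separate animals, so the p-values measure the spread between these libraries, part of which may be technical.

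Lymph nodes filter the lymph of the organ they drain. Macrophages expressing CD169, the sialic acid receptor encoded by Siglec1, line the subcapsular and medullary sinuses, where they capture particles and pathogens on a scaffold of lymphatic endothelium and reticular fibroblasts. Gut-draining nodes are known for IgA-producing plasma cells, for the addressin MAdCAM-1 and for the homeodomain factor Nkx2-3 in their stroma. The mediastinal node sits beside trachea, heart, thymus and fat.

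Against mediastinal node, ileal node had far more Nkx2-3 and many Hox transcripts, more Marco and Cd5l among macrophage genes, more lymphatic endothelial transcripts, and more Igha and Ighg1. It had less of many chemokines, of reticular fibroblast, T cell and iron-handling transcripts, and of a set of airway, brown fat and heart genes. In edgeR's quasi-likelihood test 5810 genes were higher in ileal node and 6028 lower at an adjusted p under 0.05, which is 28.4% and 29.5% of all genes tested, or 57.9% together. The 3 ileal and the 3 mediastinal libraries did not overlap for 68.4% of genes. With so many genes called, lists of genes are read below against these shares. Protein-coding genes alone leaned to lower calls, with 3167 higher and 5735 lower of 15113. Genes of other types leaned to higher calls, with 2362 higher and 247 lower of 4656. A gene near 0 at a site passes the count filter only through the other site, so lists of such genes lean that way in advance. A second test, edgeR's glmTreat, asked for a change beyond 2-fold, and 1392 genes (6.8%) passed it as higher and 1283 (6.27%) as lower. The median log2 fold change (ileal minus mediastinal) of all genes was 0.01, and every such value below is given with its standard error over 3 libraries a site. The split between higher and lower calls depended on the scaling: 36.9% of calls were higher with library totals alone (median of all genes -0.22), 49.1% with TMM, and 60.9% when TMM used protein-coding genes only (0.24), a setting chosen after the data were seen. When ileal and mediastinal libraries were fitted together with 5 other sites, which then share one estimate of the spread, 1824 genes were higher and 1401 lower, and homeobox genes, for example, came to 14 higher and 2 lower of 32, in place of the 24 and 8 of 37 given below. In that fit 11 of 26 reticular fibroblast, 12 of 32 matrix, 11 of 28 T and NK cell, 7 of 24 chemokine and 16 of 19 airway genes were lower.

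**Figure D1:**
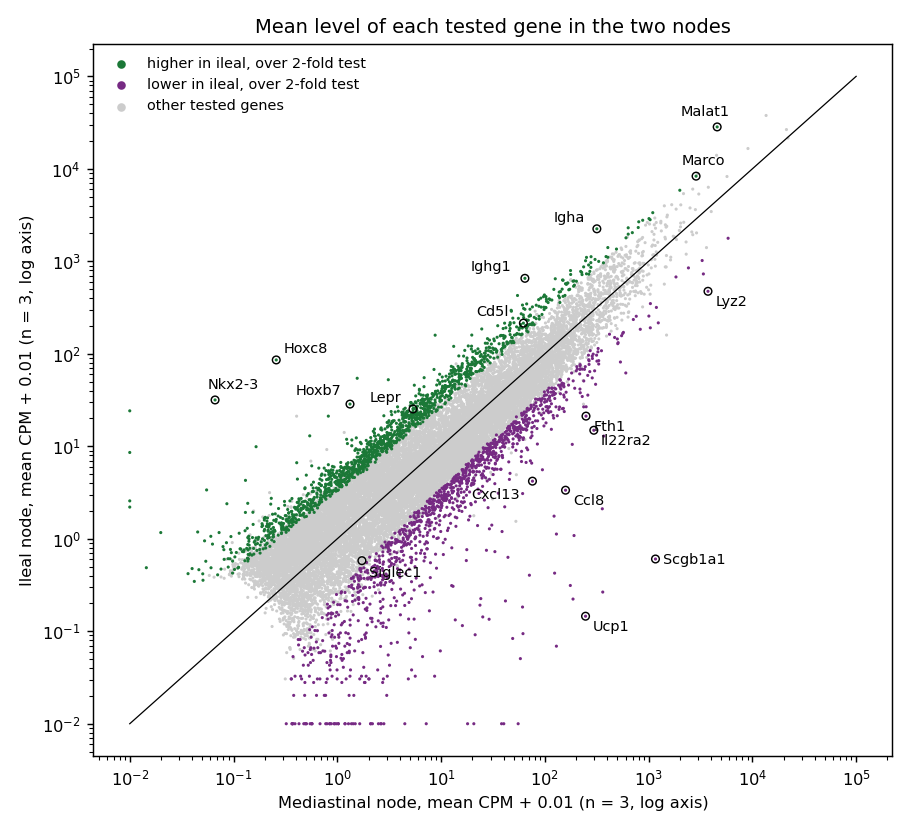
Mean CPM (counts per 1000000 of the TMM-scaled library total) of each tested gene in 3 mediastinal libraries (horizontal) and 3 ileal libraries (vertical), both on log axes after adding 0.01. Colour marks genes past the 2-fold test, circles mark genes described in the text, and the line is equality: Nkx2-3 and Hoxc8 lie far above it, Ucp1 and Scgb1a1 far below.

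Total counts ran from 18811172 to 31849079 in the ileal and from 41240156 to 69139450 in the mediastinal libraries, so 3 counts correspond to at most 0.204 CPM in any of the 6, counting error only. The noncoding RNA Malat1, which stays in the nucleus, stood at 29865, 21055 and 34263 CPM in ileal and 6081, 4711 and 2948 in mediastinal libraries, and at 266075 CPM in the 1 isotype control library, made from jejunal node. Genes of types other than protein-coding had a median log2 fold change of 1.03 (4656 genes), protein-coding genes one of -0.28 (15113 genes). Among protein-coding genes split into 5 groups by their longest transcript, the median rose from -0.46 in the shortest group to 0.03 in the longest. Gapdh, a glycolytic enzyme often used as a reference, was lower in ileal node (log2 fold change -2.69 ± 0.34, adjusted p = 0.000505). Ribosomal RNA features took 12.3% of counts in ileal replicate 3 and 1.97% to 3.16% in the others. Among genes of 10 CPM or more in the higher site, the isotype library, scaled to its own total, exceeded that site's mean for 42.4% of the genes higher in ileal node and for 0.751% of those lower. The parts of nuclear or unbound RNA and of transcript length in the differences were not tested. Isotype values are given for a part of the genes below. The Y-linked gene Ddx3y was at 2.21, 1.85 and 66.0 CPM in ileal and 0.687, 0.987 and 76.8 in mediastinal libraries, so replicate 3 stood apart at both sites, and the 3 libraries of a site do not all come from animals of one sex.

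Siglec1 itself, whose locus carries the Cre on both alleles, was scarce, with 0.699, 0.739 and 0.272 CPM in ileal and 0.817, 1.26 and 3.07 in mediastinal libraries. It was lower in ileal node (log2 fold change -1.54 ± 0.56, adjusted p = 0.0399), without overlap but at low levels, and it did not pass without ileal replicate 1 (adjusted p = 0.0801), 2 (0.0511) or 3 (0.113) or without mediastinal replicate 3 (0.197). How the knock-in alters the Siglec1 transcript is not given in the sources used here, so this gene does not check the labelled cell type. Rpl22, the tagged protein's gene, did not pass (187, 209 and 167 CPM in ileal and 215, 254 and 217 in mediastinal libraries, adjusted p = 0.0994, or 0.0429 without ileal replicate 2). Transcripts of B cells, T cells, fibroblasts and endothelium were all present beside those of macrophages, and in such mixed material fewer cells of a type and less RNA per cell cannot be told apart.

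Large differences lay in genes that record position along the body axis. Homeobox factors of the Hox clusters are set in the embryo by position and are kept by adult stromal cells, and Nkx2-3 is the homeodomain factor of gut and spleen mesenchyme. Nkx2-3 was at 32.0, 29.4 and 33.7 CPM in ileal and 0.0490, 0 and 0.120 in mediastinal libraries, a log2 fold change of 8.86 ± 0.43 (adjusted p = 9.77e-06). All ileal libraries were high and all mediastinal ones at or near 0, and the isotype library held 0 counts of it. Hoxc8, a gene of trunk segments, was at 84.9, 60.4 and 112 CPM in ileal and 0.311, 0.207 and 0.227 in mediastinal libraries (8.40 ± 0.32, adjusted p = 3.75e-06), again without overlap. The isotype library, which also comes from a gut node, held 67.4 CPM of Hoxc8 and 29.0 of its neighbour Hoxc9.

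Of 37 measured homeobox and patterning genes (51 listed), 24 were higher and 8 lower, against 28.4% and 29.5% of all genes, with a median log2 fold change of 1.29. Without mediastinal replicate 3 the lower genes numbered 5. The other large rises were Hoxc9 (4.57 ± 0.44), Hoxb7 (4.44 ± 0.29), Hoxb8 (5.01 ± 0.50), Hoxb6 (3.45 ± 0.37), Hoxc6 (3.44 ± 0.41) and Hoxd4 (2.68 ± 0.26). Hoxb7 stood at 31.8, 22.4 and 31.6 CPM in ileal and 1.85, 1.12 and 0.974 in mediastinal libraries, and at 0.200 CPM in the isotype library. Hoxc9 stood at 13.4, 9.36 and 16.1 CPM in ileal and 0.948, 0.276 and 0.374 in mediastinal libraries, all below its 29.0 CPM in the isotype library. Lower in ileal node were Hoxa2, Hoxa3, Hoxa4 and Hoxa5, from the front end of the HoxA cluster, and the T-box gene Tbx3 among others. Hoxa5, which is needed for airway and lung development, was at 3.71, 5.29 and 3.26 CPM in ileal and 19.4, 11.7 and 13.7 in mediastinal libraries (-1.85 ± 0.26, adjusted p = 0.00073), and Hoxa4 changed by -3.96 ± 0.42 (adjusted p = 0.000342). Hoxa7 and Hoxa9, further along the same cluster, went the other way (1.38 ± 0.20 and 3.48 ± 0.61), with 14.2 and 0.799 CPM in the isotype library. Tbx5, a heart and lung T-box factor, was higher in ileal node by 1.37 ± 0.35 but stood at 43.6 CPM in the isotype library.

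**Figure D2:**
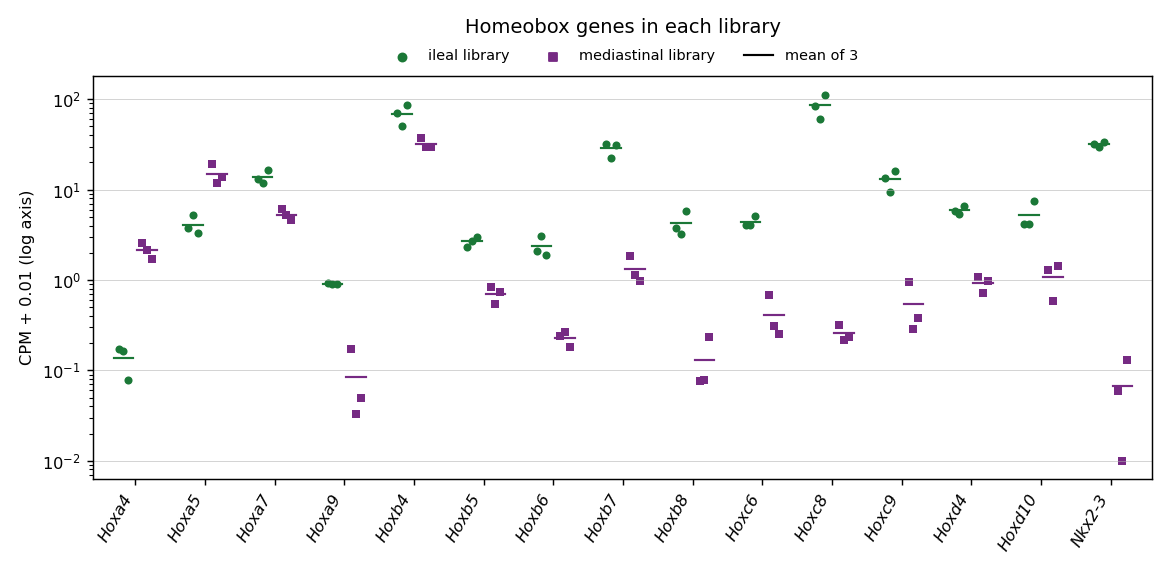
CPM of 15 homeobox genes in each library (log axis after adding 0.01). Green circles are the 3 ileal libraries, purple squares the 3 mediastinal ones, and bars their means: Hoxa4 and Hoxa5 are lower in ileal node, and the other 13 are higher with no overlap.

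Madcam1 encodes the addressin that gut-homing lymphocytes bind in vessels of the intestine and its nodes, and Nkx2-3 is known to be required for its expression there. It was at 50.1, 49.1 and 45.3 CPM in ileal and 29.9, 28.6 and 23.96 in mediastinal libraries, a log2 fold change of 0.81 ± 0.14 (adjusted p = 0.00149). The sites did not overlap, and mediastinal node held Madcam1 where Nkx2-3 was close to 0. Its promoter window is shown because Nkx2-3 and Madcam1 were both higher here. The window is chr10:79664309-79664608 on the plus strand of GRCm38.p6, from RefSeq, 250 bases before to 50 after the start of the gene. Capitals mark AAGTG, the core bound by NKX2 factors, and an NF-κB motif, both searched on both strands after the values were seen:
Madcam1: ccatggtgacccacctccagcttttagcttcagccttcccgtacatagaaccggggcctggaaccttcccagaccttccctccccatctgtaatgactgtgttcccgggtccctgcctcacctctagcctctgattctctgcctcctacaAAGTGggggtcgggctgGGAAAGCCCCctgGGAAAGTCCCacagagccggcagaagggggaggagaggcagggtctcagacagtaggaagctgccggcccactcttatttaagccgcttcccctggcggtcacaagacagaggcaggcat
AAGTG matched 1 time here and in 46.3% of all windows of this length, the NF-κB motif, found on the reverse strand, 2 times here and in 1.61%. The matching window of Nkx2-3 held neither.

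Other homing genes were mostly lower in ileal node: of 26 measured, 4 were higher and 13 lower (8 without ileal replicate 1), with a median log2 fold change of -0.57. Glycam1, a mucin-like ligand made by the high endothelial venules of peripheral nodes, was at 170.4, 277 and 31.1 CPM in ileal and 1801, 1997 and 671 in mediastinal libraries (-3.22 ± 0.91, adjusted p = 0.0294). Both replicate 3 libraries were the lowest of their site, and the groups did not overlap, but Glycam1 did not pass without ileal replicate 1 (adjusted p = 0.0724) or 2 (0.0587) or without mediastinal replicate 1 (0.084) or 2 (0.0905). Fut7, a fucosyltransferase that builds the sugars of homing ligands, was lower (-1.96 ± 0.25), as were the homing receptors Ccr7 (-1.41 ± 0.20) and S1pr1 (-1.46 ± 0.21). The rises were in Gpr15, the receptor that takes T cells to the large intestine (2.96, 4.12 and 2.99 CPM in ileal and 0.441, 0.941 and 0.547 in mediastinal libraries, 2.41 ± 0.36, adjusted p = 0.000805), in Ccr10 (1.30 ± 0.32), in Itgb1 and in Madcam1. The gut receptor Ccr9 did not pass (-0.15 ± 0.23, adjusted p = 0.596).

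Macrophage genes did not move together. Of 29 measured genes of sinus and resident macrophages, 8 were higher and 11 lower in ileal node, against 28.4% and 29.5% of all genes, with a median of -0.44. Of 15113 protein-coding genes 3167 were higher and 5735 lower, with a median of -0.28, so the list stood close to that class. Their summed level was 10851, 10903 and 12525 CPM in the ileal libraries, most of it Marco, and 6576, 10045 and 9229 in the mediastinal ones. Marco, the scavenger receptor of sinus macrophages and of medullary sinus endothelium, was at 8079, 7614 and 9314 CPM in ileal and 2764, 2783 and 3056 in mediastinal libraries (1.54 ± 0.15, adjusted p = 0.000282). Cd5l, a lipid-binding protein secreted by macrophages, was at 213, 248 and 183 CPM in ileal and 61.7, 57.4 and 67.2 in mediastinal libraries (1.79 ± 0.15, adjusted p = 0.000183). The sites did not overlap for either gene, and the isotype library held 16.99 and 0.400 CPM of them. Also higher were Hk3, a hexokinase of myeloid cells (93.1, 129.98 and 83.5 CPM in ileal and 21.1, 28.0 and 45.5 in mediastinal libraries), the scavenger receptor Stab1 (1.39 ± 0.17), Adgre1, which encodes F4/80 (1.17 ± 0.33, adjusted p = 0.0146, or 0.0551 without ileal replicate 2), and the transcription factors Nr1h3 (0.91 ± 0.16) and Maf (0.96 ± 0.20, 111 CPM in the isotype library).

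The other side of the list held Timd4, a receptor for dying cells, at 31.9, 43.2 and 32.5 CPM in ileal and 115, 213 and 128 in mediastinal libraries (-2.08 ± 0.24, adjusted p = 0.000436). Lyz2, lysozyme of myeloid cells, was at 415, 601 and 406 CPM in ileal and 2274, 4884 and 4049.9 in mediastinal libraries (-2.98 ± 0.29, adjusted p = 0.000286), although its near-identical copy Lyz1 makes the sharing of reads between them uncertain. Folr2, the folate receptor of resident macrophages (-3.22 ± 0.33), the lectins Cd209f (-4.56 ± 0.47) and Cd209g (-3.11 ± 0.49), the signalling adaptor Tyrobp (-2.13 ± 0.38) and Cd68, a lysosomal glycoprotein (-1.75 ± 0.39, adjusted p = 0.00466), were lower as well. Csf1r, the receptor for macrophage growth factor, did not pass (56.7, 90.6 and 62.1 CPM in ileal and 70.5, 131 and 128 in mediastinal libraries, adjusted p = 0.0518), though it passed as lower without ileal replicate 2 (adjusted p = 0.0154) or without mediastinal replicate 1 (0.00588). Lyz2, Timd4 and Csf1r had their lowest mediastinal level in replicate 1 and their highest ileal level in replicate 2.

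Genes for handling iron and lipid, both tasks of tissue macrophages, were lower in ileal node more often than higher. The same was true of protein-coding genes in general, of which 3167 of 15113 were higher and 5735 lower, with a median of -0.28. Of 16 iron and haem genes 3 were higher (1 without ileal replicate 1 or 2 or without mediastinal replicate 1 or 2) and 9 lower, with a median of -0.82. Fth1, ferritin heavy chain, was at 19.4, 26.9 and 17.3 CPM in ileal and 159, 315 and 273 in mediastinal libraries (-3.55 ± 0.28, adjusted p = 0.000138), Hmox1, which breaks down haem, at 89.7, 102 and 98.4 CPM in ileal and 249, 428 and 269 in mediastinal libraries (-1.71 ± 0.21), and the iron exporter Slc40a1 changed by -2.14 ± 0.32. All 3 were without overlap and had their highest level in mediastinal replicate 2. The red cell transcripts Hbb-bs (47.4, 78.4 and 60.3 CPM in ileal and 605, 590.5 and 613 in mediastinal libraries, -3.28 ± 0.19) and Hbb-bt (-2.62 ± 0.16) were lower too, and 6 of 8 erythroid genes passed as lower. Beta-globin genes are near-identical, so their separate values are uncertain.

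Of 25 lipid genes 4 were higher and 11 lower (7 lower without mediastinal replicate 2). Their median was -0.43, or -0.19 with TMM on protein-coding genes, so the list stood close to protein-coding genes in general. Apoc1, an apolipoprotein of macrophages, was at 2.26, 3.69 and 3.26 CPM in ileal and 57.4, 71.7 and 54.2 in mediastinal libraries (-4.30 ± 0.22, adjusted p = 1.31e-05). Apoe (-1.72 ± 0.21), Fabp5 (-2.52 ± 0.38) and Fabp3, a fatty acid carrier of heart and brown fat (-7.72 ± 0.36), were lower. The sterol-sensing receptor Nr1h3 and the lysosomal lipase Lipa (0.72 ± 0.20) were higher.

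Lymphatic endothelial genes leaned the other way: 12 of 22 were higher and 5 lower in ileal node (3 lower without ileal replicate 1 or without mediastinal replicate 3), with a median of 0.76. In the fit with 5 other sites 3 of 21 were higher and 2 lower, where 1824 of all 16878 genes were higher. Cldn5, a tight junction protein, was at 199, 166 and 231 CPM in ileal and 73.0, 60.1 and 71.3 in mediastinal libraries (1.54 ± 0.16, adjusted p = 0.000313). Itga2b, an integrin of platelets and of sinus endothelium, was at 200.03, 144 and 279 CPM in ileal and 79.7, 46.5 and 49.7 in mediastinal libraries (1.82 ± 0.27, adjusted p = 0.000856). Every ileal library was above every mediastinal one for both, and the isotype library held 2.80 and 2.20 CPM. Prox1, the factor that fixes lymphatic identity (1.47 ± 0.19), the hyaluronan receptors Lyve1 (1.06 ± 0.21) and Stab2 (1.46 ± 0.18), and the chemokine scavenger Ackr2 (1.95 ± 0.47) were higher as well. Members lower in ileal node included Ptx3, a secreted pattern recognition protein (-1.75 ± 0.33), and Ccl21a and Fth1, given with other lists here. Of 18 blood endothelial genes 3 were higher, among them Cldn5 and Pecam1, which are on both lists, and 13 lower, among them Vwf (-2.68 ± 0.39), Aqp1 (-2.54 ± 0.22) and Ly6c1 (-4.34 ± 0.47). Their summed level was nevertheless above mediastinal node in every ileal library (508, 473 and 561 against 411, 423 and 449 CPM). Cldn5 is in that sum, and its mean differed between the sites by more CPM than the mean of the sum did. Pecam1, also in the sum, was at 152, 137 and 168 CPM in ileal and 92.0, 91.2 and 94.0 in mediastinal libraries and at 195 CPM in the isotype library.

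**Figure D3:**
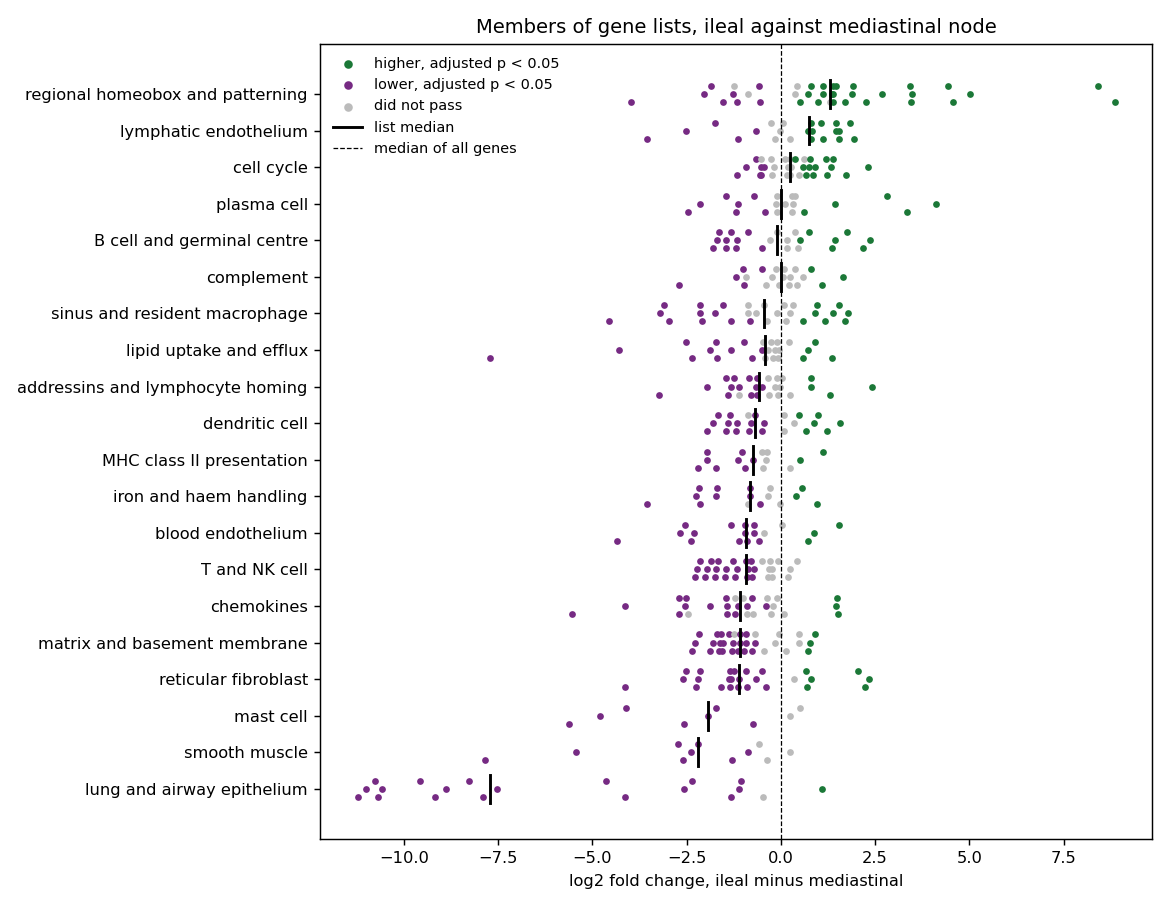
Log2 fold change (ileal minus mediastinal) of each measured member of 20 gene lists. Green and purple points passed an adjusted p under 0.05 as higher or lower, grey points did not, black bars are list medians and the dashed line is the median of all genes (0.01): the homeobox and lymphatic endothelium medians lie to its right and the airway median at -7.71.

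Reticular fibroblasts make the fibres and the chemokines that organise a node. Of 26 measured genes of these cells 6 were higher and 19 lower in ileal node, with a median of -1.12. Cxcl13, which draws B cells into follicles, was at 2.80, 6.77 and 2.99 CPM in ileal and 54.2, 59.2 and 115 in mediastinal libraries (-4.14 ± 0.42, adjusted p = 0.000341). Ccl21a, which draws T cells and dendritic cells, was at 201, 307 and 140.2 CPM in ileal and 1121, 1369 and 1229.9 in mediastinal libraries (-2.52 ± 0.26, adjusted p = 0.00033), with near-identical copies in the genome that make its own share of reads uncertain. Lower structural genes included Dpt (-2.14 ± 0.17), Des (-2.19 ± 0.23) and Pdgfrb (-1.31 ± 0.17). Higher members were Lepr, the leptin receptor of medullary and perivascular stroma, at 22.6, 25.8 and 27.5 CPM in ileal and 4.81, 5.99 and 5.26 in mediastinal libraries (2.24 ± 0.17, adjusted p = 0.000135), Ptgis, prostacyclin synthase, at 47.8, 56.2 and 42.6 CPM in ileal and 8.57, 9.05 and 11.5 in mediastinal libraries (2.33 ± 0.18, adjusted p = 0.000135), and Coch and Madcam1 were among the others. Des and Acta2 are also smooth muscle genes, whose 11 measured members summed to 233, 234 and 223 CPM in the ileal and 709, 435 and 1021 in the mediastinal libraries. Matrix and basement membrane genes had 3 of 33 higher and 22 lower, with Col3a1 (-2.36 ± 0.31), Col5a1 (-2.17 ± 0.21) and Fn1 (-1.36 ± 0.14) lower and Dcn (0.78 ± 0.14) higher. Their summed level overlapped between the sites, at 908, 1002 and 1047 CPM in the ileal and 1092, 909.7 and 1094 in the mediastinal libraries.

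Among 28 chemokine genes 15 were lower in ileal node and 3 higher, with a median of -1.08. Ccl8, a chemokine of resident macrophages that attracts monocytes and T helper cells, showed one of the clearest separations, with 3.23, 4.28 and 2.52 CPM in ileal and 123, 198 and 154 in mediastinal libraries (-5.54 ± 0.26, adjusted p = 7.95e-06). Ccl5 (-2.71 ± 0.24) and the monocyte attractants Ccl12 (-2.71 ± 0.32) and Ccl7 (-1.42 ± 0.35) were lower too. Against that direction, the interferon-induced Cxcl9 was at 174, 199 and 194 CPM in ileal and 71.8, 58.2 and 69.1 in mediastinal libraries (1.51 ± 0.13, adjusted p = 0.000228), with 26.8 CPM in the isotype library. Of 24 cytokine genes 3 were higher (1 without mediastinal replicate 2) and 8 lower. Il22ra2, the soluble decoy receptor for IL-22, was at 13.3, 22.8 and 8.50 CPM in ileal and 202, 419 and 269 in mediastinal libraries (-4.30 ± 0.41, adjusted p = 0.000297), and Tnfsf13b, which encodes the B cell survival factor BAFF, at 2.37, 2.37 and 2.45 CPM in ileal and 17.8, 21.3 and 18.9 in mediastinal libraries (-3.01 ± 0.18, adjusted p = 3.65e-05). The ileal and mediastinal libraries stood apart for both.

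Antibody genes split by class. Igha, the heavy chain of mucosal IgA, was at 1926, 2131 and 2682 CPM in ileal and 178, 627 and 147 in mediastinal libraries (2.82 ± 0.58, adjusted p = 0.00569), with mediastinal replicate 2 above the other two mediastinal libraries. Ighg1 was at 443, 959.8 and 562 CPM in ileal and 58.5, 92.1 and 42.1 in mediastinal libraries (3.35 ± 0.36, adjusted p = 0.000368) and Ighe, the rare IgE chain, at 1.13, 1.66 and 0.680 CPM in ileal and 0.0981, 0.0230 and 0.0667 in mediastinal libraries (4.12 ± 0.56). Ighg2c went the other way, at 2.31, 16.2 and 6.87 CPM in ileal and 28.1, 84.4 and 30.1 in mediastinal libraries (-2.45 ± 0.77, adjusted p = 0.0343), but it did not pass without ileal replicate 3 (adjusted p = 0.103) or without mediastinal replicate 1 (0.0599), 2 (0.0637) or 3 (0.074). Ighg2b did not pass (adjusted p = 0.731). General plasma cell genes did not follow Igha and Ighg1: of 20 measured plasma cell genes 5 were higher and 7 lower, Jchain did not pass (adjusted p = 0.215), and Sdc1 (-2.16 ± 0.25) and Mzb1 (-1.46 ± 0.21) were lower. With TMM on protein-coding genes the plasma cell counts were 8 and 6. The list summed to 3671, 4867 and 4728 CPM in the ileal and 1641, 2197 and 1959 in the mediastinal libraries, Igha included.

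B cell genes went in both directions. Ighd (-1.64 ± 0.19), Ighm (-1.32 ± 0.23), Fcmr (-1.45 ± 0.15) and Cd79b (-1.70 ± 0.16), which mature B cells express, were lower in ileal node. Rgs13 (2.35 ± 0.46), Nuggc (2.19 ± 0.39), Gcsam (1.76 ± 0.24) and Mef2b (1.37 ± 0.32), known from germinal centres, were higher, but Bcl6, the master factor of germinal centres, was lower (-1.15 ± 0.19) and S1pr2 did not pass (adjusted p = 0.115). Of 23 genes in the list 7 were higher and 10 lower, or 11 and 9 with TMM on protein-coding genes. Rgs13 stood at 0.538, 0.893 and 0.544 CPM in ileal and 0.114, 0.161 and 0.120 in mediastinal libraries. Proliferation genes had 13 of 32 higher, among them Cenpf (2.33 ± 0.23), Cdc20 (1.74 ± 0.17) and Top2a (1.33 ± 0.12), with 52.6, 0.200 and 68.6 CPM in the isotype library, and 7 lower, among them the replication helicase gene Mcm4 (-0.93 ± 0.26). The lower 7 came down to 2 without ileal replicate 1 or 3, or without mediastinal replicate 2 or 3.

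T and NK cell genes were lower or did not pass in edgeR: 20 of 30 were lower in ileal node and 0 higher (1 without ileal replicate 2 or without mediastinal replicate 1), with a median of -0.91. Trac, the T cell receptor alpha constant gene, was at 12.4, 15.3 and 7.21 CPM in ileal and 44.4, 65.0 and 60.6 in mediastinal libraries (-2.27 ± 0.27, adjusted p = 0.000445), Cd8b1 at 19.0, 24.1 and 15.9 CPM in ileal and 63.9, 79.0 and 71.8 in mediastinal libraries (-1.86 ± 0.18) and Cd3e changed by -2.01 ± 0.24. Cd4 differed less (-0.76 ± 0.18), and Cd3d and Cd2 did not pass (adjusted p = 0.0936 and 0.103). With TMM on protein-coding genes only, 3 members were called higher. The mediastinal node lies by the thymus: of 14 measured thymus genes 6 were lower and 3 higher, against 29.5% and 28.4% of all genes. Of the 6 lower ones 3 are on the T cell list, and Rag1, Rag2 and Foxn1 had too few counts to be tested. Thymus genes summed to 128, 162 and 128 CPM in the ileal and 270.4, 347 and 331 in the mediastinal libraries, and their part in the T cell differences was not tested.

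Dendritic cell genes had 6 of 23 higher and 13 lower (8 without ileal replicate 1). In the fit with 5 other sites 1 of 22 was higher and 3 were lower. Higher were Cadm1 (124, 139.9 and 129 CPM in ileal and 42.5, 46.3 and 44.8 in mediastinal libraries, 1.56 ± 0.12, adjusted p = 0.000138), Clec9a (1.23 ± 0.26), Xcr1 (0.99 ± 0.20) and Batf3 (0.89 ± 0.14), all known from the cross-presenting subset, but Irf8 (-0.85 ± 0.21), a factor which that subset also needs, was lower. Further listed genes known from that subset were split. Among the deeply sequenced nodes Wdfy4, Itgae, Id2 and Cd8a had their highest mean in mediastinal node, and Tlr3 in ileal node. Of genes known from mature dendritic cells Ccr7, Fscn1 (-1.17 ± 0.17) and Ccl17 (-1.45 ± 0.29) were lower and Ccl22 did not pass (adjusted p = 0.782). Of 15 MHC class II genes 2 were higher and 8 lower, including the invariant chain Cd74 (581, 1095 and 515 CPM in ileal and 2474, 2876 and 4766 in mediastinal libraries, -2.21 ± 0.33, adjusted p = 0.000863), while H2-DMb1 (1.12 ± 0.17), part of the peptide loading complex, was higher. Complement genes were mixed, 3 of 20 higher and 5 lower, or 6 and 4 with TMM on protein-coding genes (3 lower without ileal replicate 1, without ileal replicate 3 or without mediastinal replicate 2). C6, of the membrane attack complex, was at 100.2, 124 and 99.0 CPM in ileal and 28.0, 36.3 and 39.3 in mediastinal libraries (1.64 ± 0.17, adjusted p = 0.000315), and C1qa, a chain of the first component, was higher too (0.80 ± 0.18).

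Retinoic acid, made from vitamin A, imprints gut homing on lymphocytes. Of 16 measured genes 5 were higher and 6 lower (3 lower without ileal replicate 1 or without mediastinal replicate 2). The synthesising enzyme Aldh1a2 did not pass (4.84, 5.39 and 3.33 CPM in ileal and 3.48, 8.10 and 4.19 in mediastinal libraries, adjusted p = 0.629), and Aldh1a1, also an airway epithelial gene, was lower (1.51, 2.52 and 2.58 CPM in ileal and 24.1, 11.1 and 88.0 in mediastinal libraries, -4.21 ± 0.85, adjusted p = 0.00623, or 0.062 without ileal replicate 2). Cyp26b1, which degrades retinoic acid, was higher, at 9.09, 7.45 and 14.4 CPM in ileal and 2.55, 2.64 and 2.78 in mediastinal libraries (1.94 ± 0.27, adjusted p = 0.000641).

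Mast cell proteases were close to 0 CPM in ileal node. Mcpt4 was at 0.377, 0.0923 and 0 CPM in ileal and 8.11, 8.63 and 6.39 in mediastinal libraries (-5.62 ± 0.54, adjusted p = 0.000286), and Cma1 and Tpsb2, a chymase and a tryptase of connective tissue mast cells, changed by -4.11 ± 0.35 and -4.79 ± 0.44. Of the 9 mast cell genes measured (18 listed) 7 were lower (4 without both replicate 3 libraries, a setting chosen after the data were seen). Those near 0 in ileal node were measured only through their mediastinal counts, so the filter in part sets this count. Mcpt1 and Mcpt2, the proteases of mucosal mast cells, had too few counts to be tested at either site.

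The mediastinal libraries carried transcripts of airway, brown fat and heart. Of 20 measured lung and airway epithelium genes 18 were lower in ileal node and Rtkn2, an alveolar gene that lymphocytes express too, higher (adjusted p = 0.0406, or 0.0505 to 0.143 when any 1 of the 6 libraries was left out), with a median log2 fold change of -7.71. Scgb1a1, the secretoglobin of airway club cells, was at 0.968, 0.339 and 0.476 CPM in ileal and 848, 352 and 2295 in mediastinal libraries (-11.00 ± 1.06, adjusted p = 0.000668). Airway genes near 0 in ileal node pass the count filter only through their mediastinal counts. The count of lower genes and the median are therefore in part set by the filter. The 20 genes summed to 61.2, 79.0 and 67.7 CPM in the ileal and 1760.0, 837 and 4644 in the mediastinal libraries, highest in mediastinal replicate 3 and lowest in replicate 2. Basal cell keratin Krt5 had 0 counts in ileal node and was at least 158-fold lower, counted against 3 counts over the 3 ileal libraries; without mediastinal replicate 1 its adjusted p was 0.0634. The alveolar marker Sftpc, with 0 ileal and 74 mediastinal counts, was below the filter, and the cilia factor Foxj1 was at 3.92, 0.987 and 7.86 CPM in mediastinal libraries.

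Many fat and heart genes were lower as well: 14 of 21 white and brown fat genes and 9 of 15 striated and cardiac muscle genes. Of all genes 29.5% were lower. When the other deeply sequenced sites were fitted together with these libraries, only 6 of 20 fat and 3 of 18 muscle genes were lower. In that fit 1401 of all 16878 genes were lower. Ucp1, the uncoupling protein that makes brown fat produce heat, was at 0.215, 0.123 and 0.0680 CPM in ileal and 274, 224 and 242 in mediastinal libraries (-10.78 ± 0.26, adjusted p = 1.05e-07), and Cidea at 0.645, 0.739 and 1.84 CPM in ileal and 239, 138 and 197 in mediastinal libraries (-7.57 ± 0.39, adjusted p = 1.31e-05). Elovl3 had 0 ileal counts (at least 97.9-fold lower). The fat list holds genes of white as well as brown fat. Retn was its 1 member higher in ileal node (1.37 ± 0.17), and Fabp4 was among the 6 that did not pass (adjusted p = 0.372). The fat list summed to 4866, 4969 and 6336 CPM in the ileal and 8141, 6607 and 6517 in the mediastinal libraries. Myh6, a heart myosin, was at 0, 0.246 and 0.272 CPM in ileal and 21.6, 84.7 and 76.6 in mediastinal libraries (-8.38 ± 0.79, adjusted p = 0.00038), with its lowest mediastinal level in replicate 1. The muscle list summed to 92.2, 105 and 98.2 CPM in the ileal and 207, 263 and 323 in the mediastinal libraries. In smooth muscle 8 of 11 genes were lower. The part of these tissues in the lower chemokine, fibroblast and matrix genes was not tested.

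Few gut epithelial genes reached the filter at either site. Of 11 measured intestinal epithelium genes (26 listed) 3 were higher and 5 lower. Higher were Fabp6, the ileal bile acid binding protein, at 2.37, 2.19 and 3.13 CPM in ileal and 0.278, 0.207 and 0.534 in mediastinal libraries (2.86 ± 0.41, adjusted p = 0.000721), and Slc10a2, the ileal bile acid transporter, at 10.4, 6.31 and 9.52 CPM in ileal and 4.51, 2.64 and 1.80 in mediastinal libraries (1.55 ± 0.35, adjusted p = 0.00491, 20.8 CPM in the isotype library). Among the lower were Reg3g, an antimicrobial lectin that airway also makes, at 0.108, 0.0923 and 0.408 CPM in ileal and 18.3, 15.6 and 91.3 in mediastinal libraries (-7.90 ± 1.15, adjusted p = 0.00186), Lyz1 (-2.20 ± 0.33) and Krt20 (-2.24 ± 0.27). The list summed to 144, 174 and 120.0 CPM in the ileal and 308, 569 and 484 in the mediastinal libraries. Vil1, Muc2, Fabp2 and Sis had too few counts to be tested.

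**Figure D4:**
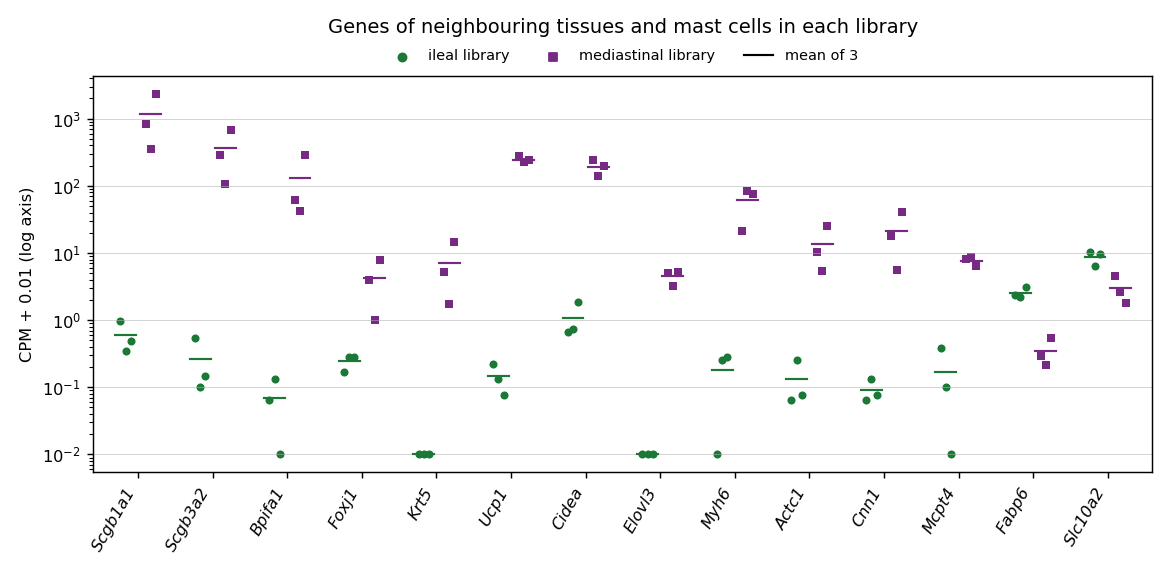
CPM of 14 genes of airway, brown fat, muscle, mast cells and ileal epithelium in each library (log axis after adding 0.01; points at 0.01 are 0 counts). Green circles are ileal and purple squares mediastinal libraries, with bars at the means: the first 12 genes are higher in every mediastinal library, Fabp6 and Slc10a2 in every ileal one.

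Further genes were named by rule, as the largest changes and smallest p-values among called genes without overlap, of at least 10 CPM in the higher site and outside the neighbouring-tissue lists. On the higher side Tox2, an HMG-box factor of lymphocytes, was at 309, 351 and 345 CPM in ileal and 73.5, 79.0 and 95.4 in mediastinal libraries (2.02 ± 0.14, adjusted p = 8.88e-05), Eaf2, an elongation factor partner of germinal centre B cells, at 56.0, 55.6 and 68.7 CPM in ileal and 10.8, 9.57 and 8.66 in mediastinal libraries (2.63 ± 0.16), and the small GTPase Mras at 69.3, 75.6 and 70.2 CPM in ileal and 14.3, 16.9 and 16.2 in mediastinal libraries (2.18 ± 0.14). Gsc, a homeobox gene of the early embryo, was at 9.84, 16.04 and 9.79 CPM in ileal and 1.62, 0.987 and 1.05 in mediastinal libraries (3.28 ± 0.30, adjusted p = 0.000267). Capn12 (4.72 ± 0.57), Robo3 (3.09 ± 0.23), Nnat (4.06 ± 0.76), Jaml (3.01 ± 0.20), Rad51ap1 (3.01 ± 0.23), Guca1a (2.62 ± 0.18), Sapcd1 (2.98 ± 0.19) and Cryba4 (3.05 ± 0.21) were higher without overlap, with 30.0 CPM of Rad51ap1 in the isotype library. Pou1f1, a pituitary factor, was at 153, 87.2 and 237 CPM in ileal and 15.7, 7.19 and 3.35 in mediastinal libraries and at 1183 CPM in the isotype library. Whether the counting used strand is not given in the sources used here, so counts at genes that overlap others are uncertain, and Hmga1b (5.11 ± 0.71) has a near-identical copy.

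Lower genes named by the rule were in large part ones that airway, brown fat or heart express as well. Adh7 had 0 ileal counts (at least 453-fold lower; adjusted p = 0.0713 without mediastinal replicate 1), and Ltf, lactoferrin, was at 0.377, 0.123 and 0.408 CPM in ileal and 209.8, 52.7 and 266 in mediastinal libraries, with Cyp2a5 (-9.95 ± 0.95), Wfdc2 (-8.27 ± 0.77), Sec14l3 (-7.64 ± 0.83), Cbr2 (-7.40 ± 0.79), Aqp5 (-7.03 ± 0.82), Lypd2 (-6.04 ± 0.69) and Gsta4 (-4.88 ± 0.54) on the same side. Cox7a1, a muscle and brown fat form of a respiratory chain subunit, was at 1.56, 2.19 and 1.496 CPM in ileal and 159, 93.5 and 116 in mediastinal libraries (-6.10 ± 0.27, adjusted p = 7.17e-06), beside Tcap (-6.99 ± 0.38) and Cpt1b (-4.50 ± 0.24). Igfbp3, a carrier of insulin-like growth factors, was at 4.20, 4.06 and 3.54 CPM in ileal and 35.4, 28.5 and 34.9 in mediastinal libraries (-3.06 ± 0.18). Nme1nme2 (-6.79 ± 0.67), a read-through of neighbouring genes, and Srp54c (-6.35 ± 0.86), which has near-identical copies, carry uncertain counts.

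Levels in the 5 other sites with more than 1000000 counts in every library show where each of the 2 nodes stood. These are descriptions on the same CPM scale, with no test. Nkx2-3 was also high in ceco-colonic node (35.6, 42.5 and 38.05 CPM) and in spleen (53.3, 73.6 and 33.6), and in super cervical node it was at 0, 0 and 41.6, with 1 library apart from the other two. Hoxc8 divided the sites otherwise, at 87.9, 134 and 146 CPM in ceco-colonic and 65.0, 112 and 72.5 in inguinal node, and no more than 4.21 in any library of the remaining 3. For Marco the ileal libraries were above all others of these sites, the next being a spleen library at 4126 CPM and a ceco-colonic one at 3869. Ighg1 and Hk3 were also highest in the 3 ileal libraries, and Igha reached 1318, 1387 and 1841 CPM in ceco-colonic node.

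Of the genes lower in ileal node, Ccl8 was also low in ceco-colonic node (11.4, 4.37 and 5.35 CPM) and high in inguinal (65.8, 136 and 127) and super cervical node (236, 222 and 245). All 3 mediastinal libraries were above every other library of these sites for Ccl21a, Il22ra2, Lyz2 and Cxcl13, with a single deep cervical library reaching 181 CPM of Il22ra2. Ucp1 and Cidea were shared with deep cervical node, where Ucp1 was at 151, 233 and 859 CPM. Several airway and heart genes were as high or higher in deep cervical libraries, such as Wfdc2 (572, 525 and 229 CPM), Aqp5 (50.3, 81.6 and 90.9), Tcap (1149, 677 and 350.1) and, in 1 library of 3, Myh6 (0, 8.76 and 2545). Scgb1a1 did not exceed 5.95 CPM in any library of the other 5 sites. Mcpt4 was present in every inguinal, super cervical and deep cervical library and had 0 counts in ceco-colonic node, where 3 counts of the smallest library come to 1.26 CPM of its unscaled total.

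**Figure D5:**
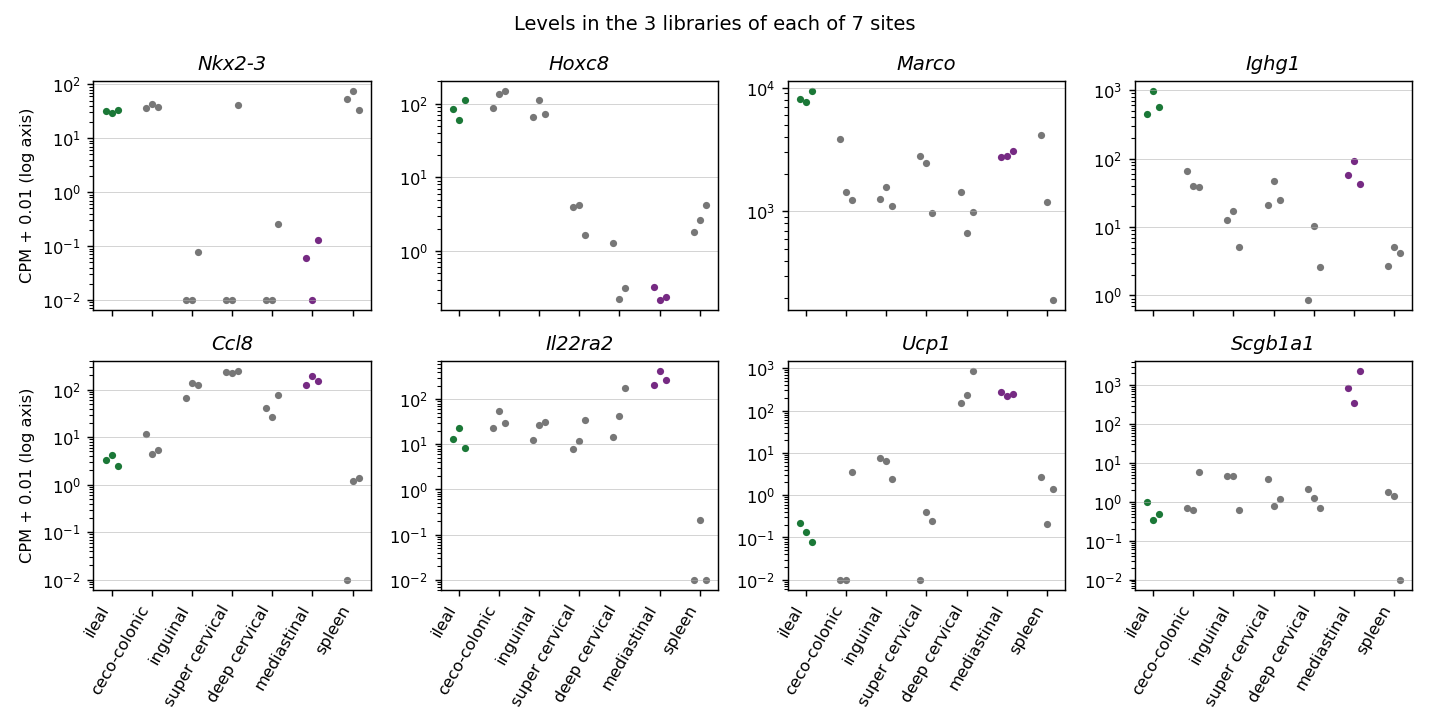
CPM of 8 genes in each of 3 libraries at 7 sites (log axes after adding 0.01, each panel with its own scale; points at 0.01 are 0 counts). Ileal libraries are green, mediastinal purple and the others grey: Nkx2-3 is shared with ceco-colonic node and spleen, Hoxc8 with ceco-colonic and inguinal node, Ucp1 of mediastinal node with deep cervical node, and Scgb1a1 stands out in mediastinal node.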

How the data were processed

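RNA was sequenced from immunoprecipitated ribosomes of mouse lymphoid organs, with polyA-selected libraries, per the labels' protocols. The deposited table holds estimated counts per gene; the submitters' processing notes name kallisto, limma and edgeR, and both GRCm39 and mm10, without versions or roles. Of its values 32.8% were not whole, and they were rounded. How transcript estimates were scaled to genes is not given in the sources used here.

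Libraries were grouped by the site in their titles. Genes were kept by edgeR's filterByExpr (at least 10 counts in enough libraries, 15 in all), scaled by TMM and tested in the 6 libraries with the robust quasi-likelihood test of edgeR 4.0.16 (limma 3.58.1, DESeq2 1.42.0 and R 4.3.3 for alternatives), with Benjamini-Hochberg adjustment at 0.05. The scripts were tested on simulated data. Standard errors are the fold change over the square root of its F statistic. CPM uses TMM-scaled totals. Gene types came from GENCODE M21, promoters from the RefSeq table of GRCm38.p6.

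The comparison and the gene lists were chosen with earlier results of these data known. Named genes were anchors (Siglec1, Rpl22, Cd68, Adgre1, Csf1r and Marco), the 15 largest changes and 10 smallest p-values per direction among called genes without overlap and with 10 CPM or more in the higher site, and list members; members outside the first 10 by p were chosen after their values were seen. Clone names, pseudogenes, antibody and T cell receptor segments and neighbouring-tissue genes were left out of the top lists. Alternatives covered tools, scaling, filters, depth, samples, the replicate block and each library left out; TMM on protein-coding genes and leaving out both replicate 3 libraries were chosen after seeing the data. Intervals and floors of 3 counts cover counting error only.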

Additional observations from a re-analysis of the deposited data

How the results depend on the processing

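Of the 178 genes named, 166 passed in edgeR's test with the 6 libraries, 158 of those also passed in each of the 6 fits that left out 1 library, and 0 of the 166 changed direction under any alternative. Most were named for small p-values or large changes in these same libraries. Such genes could hardly fail or reverse in these refits, so the counts say nothing of other genes. Leaving out 1 library gave 9145 to 11995 genes called, 4400 to 5910 higher and 4684 to 6262 lower, against 11838, 5810 and 6028. With the 7 deep sites in 1 fit 3225 genes were called, 1824 higher and 1401 lower; of the 3198 also tested in the 6 libraries, 3195 were called there in the same direction, and 35 named genes no longer passed. Against a 2-fold change glmTreat called 2675, 1392 higher and 1283 lower, and 41 named genes no longer passed. Without both replicate 3 libraries, a setting chosen after the data were seen, 7643 genes were called, 3582 of them higher and 4061 lower. The cause was not tested, beyond the fewer libraries or the stricter threshold that these settings use. With replicate number as a block, 11478 genes were called, 5600 higher and 5878 lower. The labels give no shared animal or day behind a replicate number, so the numbers were not taken as pairs. Deviations of same-numbered libraries correlated at 0.15, 0.13 and -0.14 and those of other-numbered ones at -0.35 to 0.24. With 3 libraries a site these correlations cannot decide whether the numbers are pairs, and Ddx3y was high in replicate 3 at both sites. With the block Siglec1 (adjusted p = 0.0923) and Rtkn2 (0.0634) no longer passed and Csf1r did (0.0158); no other named gene changed its call. Genes that had not passed could change sign. Ddx3y turned positive with voom (0.22), with the block (0.61), with TMM on protein-coding genes (0.11) and without both replicate 3 libraries (1.27), and ranged from -3.69 to 4.78 when 1 library was left out. With TMM on protein-coding genes Aldh1a2 (0.0247), Ccr9 (0.0865) and Fabp4 (0.00696) turned positive, and with library totals alone Ighg2b (-0.11) and Ccl22 (-0.13) turned negative. When 1 library was left out Aldh1a2 ranged from -0.43 to 0.24, Ighg2b from -0.30 to 0.35, Ccl22 from -0.10 to 0.30 and Jchain from -0.0063 to 0.44. Depth limits low genes: a gene of the ileal libraries is not detectable below 0.0456 CPM, 3 counts over the 3 libraries.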

Other observations

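Several groups of genes lay outside the sections above. Of 28 immediate early genes, which stimulation or tissue handling induces, 15 were lower in ileal node and 2 higher, with a median log2 fold change of -0.78; the 2 became 1 without ileal replicate 1 or 3 or without mediastinal replicate 2 or 3. The list summed to 5698, 4762 and 7489 CPM in the ileal and 4346, 4042 and 4532 in the mediastinal libraries. Its total, in which the most abundant members weigh most, thus went the other way from the count of members. Egr1, an early growth response factor, was at 9.20, 15.5 and 11.6 CPM in ileal and 28.9, 23.2 and 34.8 in mediastinal libraries (-1.25 ± 0.23, adjusted p = 0.00184 in edgeR). Of 14 nerve and glia genes 10 were lower. Interferon-stimulated genes were mixed, with 7 of 38 higher (4 without ileal replicate 1) and 11 lower (18 without mediastinal replicate 1), but 2 and 15 with library totals alone and 0 of 35 and 3 in the fit of 7 sites. Of 13 mitochondrially encoded genes 1 was lower, mt-Co2, and 11 were without ileal replicate 3, the library with the largest ribosomal RNA share.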
